A study of Mus musculus with 9 samples.

Results

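The genes described here are 7 ubiquitin ligases linked to muscle wasting that carry a RING or a U-box domain, namely Cblb, Stub1, Traf6, Trim32, Mul1, Znrf2 and Siah1a. They were chosen by gene symbol from the count tables, which hold 23238 symbols, and all 7 were found and were among the 12859 genes tested. The samples were gastrocnemius muscles, a calf muscle of mostly fast fibres, from female C57BL/6 mice bought at 4 weeks of age and acclimatised for 7 days. The 3 groups of 3 libraries were compared. The RP group received 4 intraperitoneal injections of 3 mg/kg cisplatin, a platinum drug that crosslinks DNA, on alternate days, and, on 9 consecutive days, 100 mg/kg RP by mouth. The labels do not spell out RP, and the series title names an extract of the peony Paeonia lactiflora. The Cisplatin group received the same injections with distilled water by mouth, and the Normal group received saline injections with distilled water. No group received RP without cisplatin, and the labels do not state that each library came from its own mouse, so p-values refer to the spread among these libraries, which may be technical.

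A ubiquitin ligase is the enzyme that brings a ubiquitin-carrying E2 enzyme to a chosen protein, and chains of ubiquitin can send that protein to the proteasome or change its signalling. RING domains hold zinc ions and the U-box has a related fold without them, and both bind the E2 enzyme directly. In skeletal muscle, CBLB acts on the insulin receptor substrate IRS1 during unloading, TRAF6 builds signalling chains downstream of cytokine receptors, TRIM32 acts on desmin and thin filament proteins, and MUL1 sits in the outer mitochondrial membrane and acts on mitofusin. STUB1, also called CHIP, is the U-box ligase that works with HSP70 and HSP90 chaperones. ZNRF2 is a membrane-attached ligase that binds the sodium pump, and SIAH1 proteins act on many targets, among them the prolyl hydroxylases of the hypoxia pathway.

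The promoters of the 4 genes that passed the test in Cisplatin against Normal are printed so that they can be read beside those changes. Each window holds 250 bases before and 50 bases after the gene start in RefSeq on GRCm38.p6, given on the gene's own strand, at chr16:52031299-52031598 (plus) for Cblb, chr4:138434422-138434721 (plus) for Mul1, chr8:86745957-86746256 (minus) for Siah1a and chr4:65604736-65605035 (plus) for Trim32. Capitals mark matches on either strand to a CCAAT box (CCAAT), an E-box (CACGTG), a cAMP response half-site (TGACG) or a FoxO core (GTAAACA), and the Siah1a window held none of them. RefSeq starts can differ from the gene ends in GENCODE given further on.
Cblb: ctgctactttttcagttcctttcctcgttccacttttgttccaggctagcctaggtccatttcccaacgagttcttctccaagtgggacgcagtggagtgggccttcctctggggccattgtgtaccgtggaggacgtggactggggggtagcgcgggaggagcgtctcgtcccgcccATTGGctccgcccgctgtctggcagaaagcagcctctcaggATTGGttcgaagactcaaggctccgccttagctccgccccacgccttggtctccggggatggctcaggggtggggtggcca
Mul1: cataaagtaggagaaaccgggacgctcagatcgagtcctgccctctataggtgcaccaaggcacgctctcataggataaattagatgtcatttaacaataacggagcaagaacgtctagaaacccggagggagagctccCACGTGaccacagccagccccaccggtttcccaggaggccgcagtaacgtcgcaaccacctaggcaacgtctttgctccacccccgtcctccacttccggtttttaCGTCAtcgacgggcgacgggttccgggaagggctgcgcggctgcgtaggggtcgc
Siah1a: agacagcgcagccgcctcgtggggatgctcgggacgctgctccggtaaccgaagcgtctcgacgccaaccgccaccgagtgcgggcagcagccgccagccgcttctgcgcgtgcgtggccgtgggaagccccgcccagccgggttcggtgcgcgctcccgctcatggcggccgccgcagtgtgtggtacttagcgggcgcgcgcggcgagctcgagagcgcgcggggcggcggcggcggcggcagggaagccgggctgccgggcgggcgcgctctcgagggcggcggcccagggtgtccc
Trim32: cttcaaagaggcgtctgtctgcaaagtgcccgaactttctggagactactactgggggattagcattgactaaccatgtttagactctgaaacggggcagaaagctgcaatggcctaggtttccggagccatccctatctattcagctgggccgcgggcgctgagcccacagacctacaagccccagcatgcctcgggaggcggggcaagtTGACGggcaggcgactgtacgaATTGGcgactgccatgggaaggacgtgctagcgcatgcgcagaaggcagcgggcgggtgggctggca
The FoxO core was found in 0 of the 7 promoters, against 3.65% of all 32851 promoter windows in the same table. The E-box stood in Mul1, 111 bases before the start, and in Stub1, 69 bases before it, and 7.15% of all windows held it. The cAMP half-site stood in Trim32, 39 bases before the start, and in Mul1, 5 bases before it, against 20.8% of all windows. CCAAT boxes were present in 3 of 7 (Cblb, Trim32 and Znrf2), against 37.4%. A GC box (GGGCGG), which is not in capitals, was present in 6 of 7, Mul1 being without it, against 35.7%. No matches overlapped, and a match is a description of the letters in the window. The 7 windows had a median GC content of 61.3% and a median of 25 CpG dinucleotides, against 52.7% and 7 over all windows.

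Expression was read with a Lexogen QuantSeq 3′ kit, in which each transcript gives 1 tag near its end, so levels are not scaled by gene length. Levels are CPM, counts scaled to a common library total after TMM normalisation, fold changes are edgeR log2 estimates ± SE with 95% confidence intervals, and a gene was called at a Benjamini-Hochberg adjusted p under 0.05 over all genes. Total counts per library were 9178613 to 9826089 for RP, 8352397 to 10678342 for Cisplatin and 8196030 to 8677236 for Normal. The summed level of 12 muscle fibre markers was 119561 to 135261 CPM in RP, 86020.5 to 115361 CPM in Cisplatin and 123152 to 133447 CPM in Normal, and each of these markers was detected in each group. The summed level of 10 fibroblast and fibro-adipogenic progenitor markers was 3358 to 5204 CPM in RP, 579 to 1179 CPM in Cisplatin and 5009.5 to 7492 CPM in Normal. In Cisplatin against Normal these 10 markers fell, as did 8 of 8 smooth muscle and pericyte, 8 of 10 macrophage, 7 of 7 adipocyte, 7 of 7 tendon, 5 of 8 Schwann cell, 5 of 5 erythroid, 4 of 9 endothelial and 3 of 7 satellite cell markers tested, and 1 lymphocyte marker of 1 tested. Of the muscle fibre markers 6 fell and 1 rose, and 1 neutrophil marker of 4, 1 macrophage, 2 endothelial and 1 satellite cell marker rose. The muscle fibre and the satellite cell marker that rose were the same gene, the desmin gene Des, which stands in both lists. The comparison of RP with Cisplatin had 10 fibroblast, 8 smooth muscle, 7 adipocyte, 7 tendon, 6 macrophage, 6 Schwann cell, 5 muscle fibre, 4 erythroid, 3 endothelial and 3 satellite cell markers higher. It had 3 of 4 neutrophil markers and 1 marker each of muscle fibre, macrophage, endothelial and satellite cells lower. The lower muscle fibre and satellite cell marker was again Des. RP against Normal had 5 erythroid, 3 tendon and 1 fibroblast marker lower. In bulk muscle, fewer cells of a type and less RNA per cell cannot be told apart, and the part of these shifts in the changes of the ligases was not tested.

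Of the 7 ligases, 3 were higher and 1 was lower in Cisplatin than in Normal. Cblb, Siah1a and Mul1 rose against Normal, Trim32 fell, and Traf6, Znrf2 and Stub1 did not pass the test. Over all genes tested 54.5% were called in Cisplatin against Normal, 26.3% higher and 28.2% lower, so 4 called of 7 is close to the background. The groups did not overlap for 6 of the 7, against 62.2% of all genes. The median log2 fold change of the 7 was 0.45, and the median size regardless of sign was 0.568, against -0.0755 and 0.685 over all genes. The RP libraries had Trim32 higher and Cblb lower than the Cisplatin libraries, while the other 5 were not called, against 48.8% of all genes called. The median size of the change was 0.285 for the 7 and 0.615 over all genes in that comparison. In RP against Normal 0 of 7 were called by edgeR, DESeq2 or limma-voom, 1 had an unadjusted p under 0.05 by each of these tools, and 0.505% of all genes were called. The RP and Normal libraries overlapped for each of the 7, while 19.2% of all genes had groups that did not overlap. The comparisons share groups, so a change in one direction and back is not a second, separate observation.

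**Figure D1:**
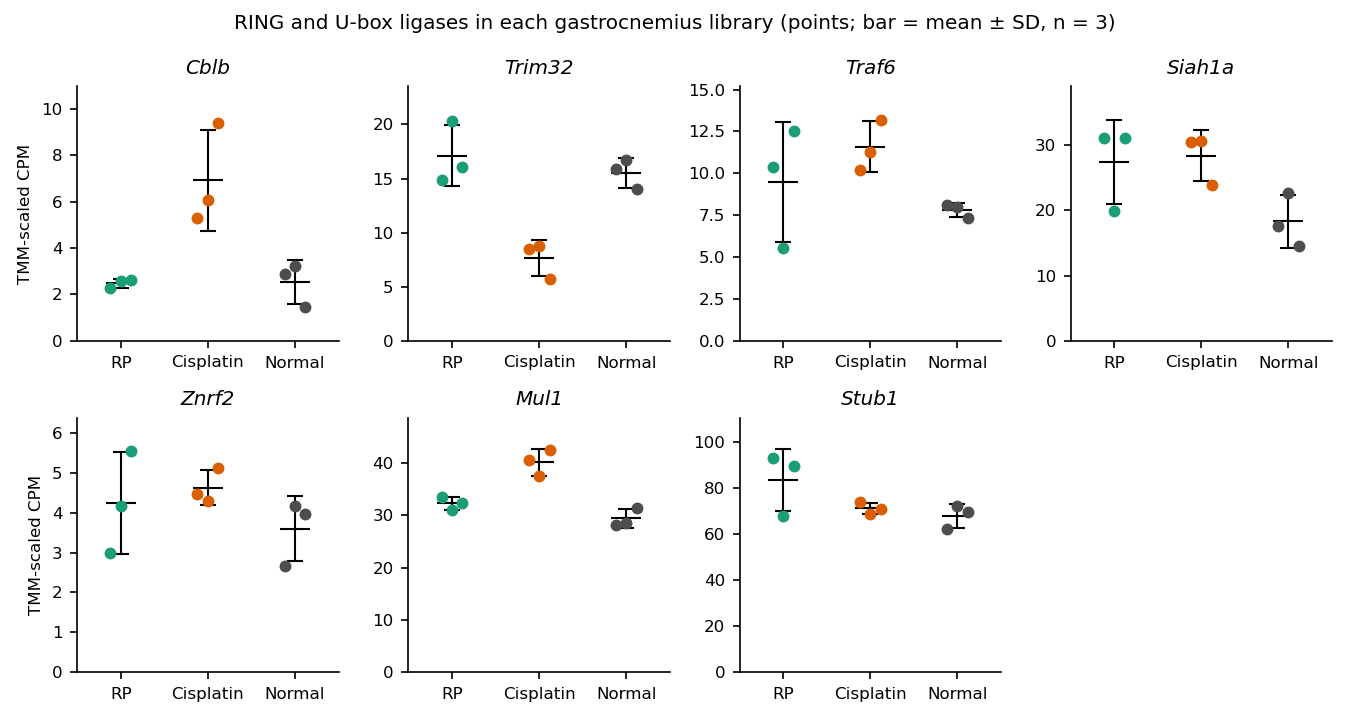
TMM-scaled CPM (vertical axis, from 0) of each ligase in each library, with RP, Cisplatin and Normal along the horizontal axis. Points are libraries and bars are mean ± SD over 3 libraries. The 3 Cisplatin points lie above the others for Cblb (5.29 to 9.4 CPM) and below the others for Trim32 (5.71 to 8.75 CPM).

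**Figure D2:**
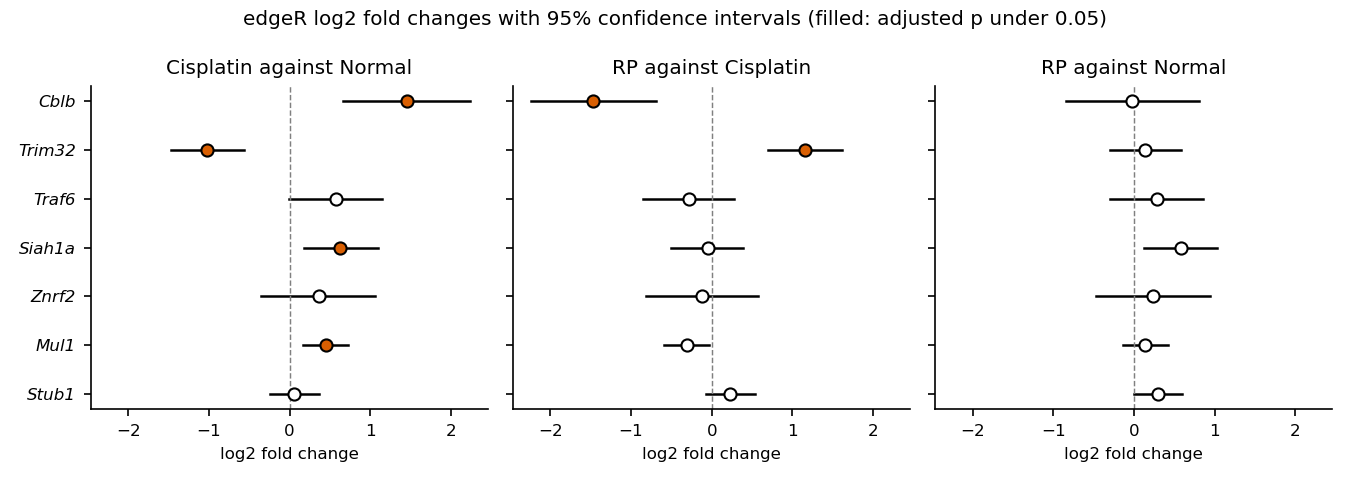
Log2 fold changes (horizontal axis) of the 7 ligases in each of 3 comparisons, with 95% confidence intervals that are not adjusted for multiple tests. Filled points passed an adjusted p under 0.05. Cblb and Trim32 are filled in both comparisons that involve Cisplatin, in opposite directions, and no point is filled in RP against Normal.

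Levels differed widely between the 7 ligases. Over the 9 libraries the level of Stub1 was 62.3 to 92.9 CPM, that of Mul1 28.1 to 42.5 CPM and that of Siah1a 14.6 to 31.1 CPM. Stub1 stood apart from the rest, while the ranges of Mul1 and Siah1a overlapped. Trim32 was at 5.71 to 20.3 CPM, Traf6 at 5.56 to 13.2 CPM, Znrf2 at 2.66 to 5.55 CPM and Cblb at 1.44 to 9.4 CPM, and from Siah1a down neighbours in this order overlapped except Traf6 and Znrf2, whose ranges came close without overlapping. Fbxo32 and Trim63, the atrogin-1 and MuRF1 ligases that mark atrophy, averaged 10076 and 10335 CPM in Cisplatin. Their means were 500.3 and 615 CPM in RP and 383 and 545 CPM in Normal. The 7 thus lay below both in every group, by the most in Cisplatin. Mean levels of Znrf2 and Cblb over all libraries lay above 23.3% and 22.5% of the genes tested.

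Cblb encodes the RING ligase CBL-B, which limits insulin and IGF-1 signalling in unloaded muscle and restrains T cell activation. Counts were 22, 26 and 26 in RP, 45, 64 and 79 in Cisplatin and 24, 28 and 12 in Normal, which is 2.27, 2.58 and 2.62 CPM in RP, 5.29, 6.08 and 9.4 CPM in Cisplatin and 2.9, 3.24 and 1.44 CPM in Normal. Every Cisplatin library lay above every RP and every Normal library, and RP and Normal overlapped. Cblb rose 2.72-fold in Cisplatin against Normal, a log2 fold change of 1.45 ± 0.36 (interval 0.66 to 2.23, edgeR adjusted p = 0.00423). It fell by 1.47 ± 0.36 on the log2 scale in RP against Cisplatin (edgeR adjusted p = 0.00425). Each call held in 16 of 16 alternatives, with adjusted p of 0.000924 to 0.0238 and of 0.000744 to 0.0246. Of these, the minimum of 5 CPM in 3 libraries was met by Cblb only through the Cisplatin libraries, where it was high. That alternative therefore adds no support to the calls. RP against Normal gave -0.02 ± 0.38, with an interval of -0.84 to 0.80 that does not exclude a difference in either direction. The 9 T and B lymphocyte markers summed to 6.36 to 7.75 CPM in RP, 2.62 to 6.23 CPM in Cisplatin and 8.82 to 14.3 CPM in Normal, and Cd3e, Cd3g, Cd79a and Lck were among those with no count in Cisplatin, where Cblb was highest. The gene spans chr16:52031225-52208048 on the plus strand of GRCm38 in GENCODE M21, and no gene of the count tables overlaps it.

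Trim32 encodes a RING ligase of the tripartite motif family that is mutated in a limb-girdle muscular dystrophy and acts on thin filament proteins and desmin. It was the only one of the 7 called lower in Cisplatin. Its levels were 14.9, 20.3 and 16.1 CPM in RP, 8.46, 8.75 and 5.71 CPM in Cisplatin and 15.9, 16.7 and 14 CPM in Normal. The Cisplatin libraries lay below all others, and RP and Normal overlapped. The log2 fold change was -1.02 ± 0.21 in Cisplatin against Normal (interval -1.47 to -0.56, edgeR adjusted p = 0.00117) and 1.16 ± 0.21 in RP against Cisplatin (interval 0.70 to 1.61, edgeR adjusted p = 0.000548). Both calls held in each of 16 alternatives, with values of -1.13 to -0.83 and of 0.98 to 1.29. In RP against Normal the change was 0.14 ± 0.20 (interval -0.30 to 0.58, edgeR adjusted p = 0.827). Trim32 lies at chr4:65604986-65616238 on the plus strand, within an intron of Astn2 on the opposite strand, and shares 0 exonic bases with it. Astn2 had 3 counts over RP, 0 over Cisplatin and 9 over Normal, against 508, 212 and 392 counts of Trim32. The fibroblast marker sum was lower in the Cisplatin libraries as well, and its part in the lower Trim32 level was not tested.

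Mul1 encodes a RING ligase of the outer mitochondrial membrane, known in wasting muscle for the degradation of mitofusin 2. Its levels were 33.5, 31 and 32.4 CPM in RP, 40.5, 37.4 and 42.5 CPM in Cisplatin and 28.1, 28.6 and 31.4 CPM in Normal. Each Cisplatin library lay above all RP and Normal libraries, and the spread within groups was small. Mul1 rose 1.37-fold in Cisplatin against Normal, a log2 fold change of 0.45 ± 0.13 (interval 0.17 to 0.73, edgeR adjusted p = 0.00999), and this call held in all 16 alternatives. RP against Cisplatin gave -0.31 ± 0.13 and did not pass (interval -0.59 to -0.03, edgeR adjusted p = 0.0596, 0.0509 to 0.305 over the alternatives), although the groups did not overlap, which was so for 56.8% of all genes. RP against Normal gave 0.14 ± 0.13 (interval -0.14 to 0.42). Mul1 lies at chr4:138434671-138442265 on the plus strand and overlaps no other annotated gene.

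Siah1a encodes a RING ligase of the SIAH family, whose fly relative acts in photoreceptor formation. Its levels were 31.1, 19.9 and 31.1 CPM in RP, 30.5, 30.6 and 23.9 CPM in Cisplatin and 17.6, 22.7 and 14.6 CPM in Normal. All Cisplatin libraries lay above the Normal ones, while RP overlapped both groups through RP replicate 2. Siah1a rose 1.55-fold in Cisplatin against Normal, a log2 fold change of 0.63 ± 0.21 (interval 0.18 to 1.09, edgeR adjusted p = 0.0217). This call was lost without Normal replicate 1 (0.0573), Normal replicate 3 (0.0864), Cisplatin replicate 1 (0.0608) or Cisplatin replicate 2 (0.0673), as adjusted p. RP against Cisplatin gave -0.05 ± 0.21 (interval -0.50 to 0.39, edgeR adjusted p = 0.847), and its sign depended on the scaling. RP against Normal gave 0.58 ± 0.21 (interval 0.12 to 1.03), which did not pass after adjustment over all genes (edgeR adjusted p = 0.267).

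Siah1b, a closely related copy of Siah1a on the X chromosome, may qualify this result. The authors' counting could split reads between the copies if their 3′ ends are alike, which was not checked here. Siah1b was at 4.55, 6.65 and 10.7 CPM in RP, 3.05, 5.42 and 4.28 CPM in Cisplatin and 8.7, 5.78 and 5.17 CPM in Normal. Siah1a took 74.4 to 87.2% of the counts of both copies in RP, 84.8 to 90.9% in Cisplatin and 67.0 to 79.7% in Normal. Siah1b was not called, with log2 fold changes of -0.61 ± 0.35 in Cisplatin against Normal (edgeR adjusted p = 0.159) and 0.77 ± 0.35 in RP against Cisplatin (edgeR adjusted p = 0.0835). It was called higher in RP against Cisplatin with library size as the only scaling (0.91, edgeR adjusted p = 0.0489) and without RP replicate 1 (1.02, edgeR adjusted p = 0.0334). With both copies summed, an alternative chosen after seeing the data, the change in Cisplatin against Normal was 0.39 and did not pass (edgeR adjusted p = 0.0988). Siah1a lies at chr8:86724007-86745934 on the minus strand, and its annotated exons share 118 bases near the gene start with Gm10638 on the opposite strand, which had 96 counts over RP, 53 over Cisplatin and 64 over Normal.

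**Figure D3:**
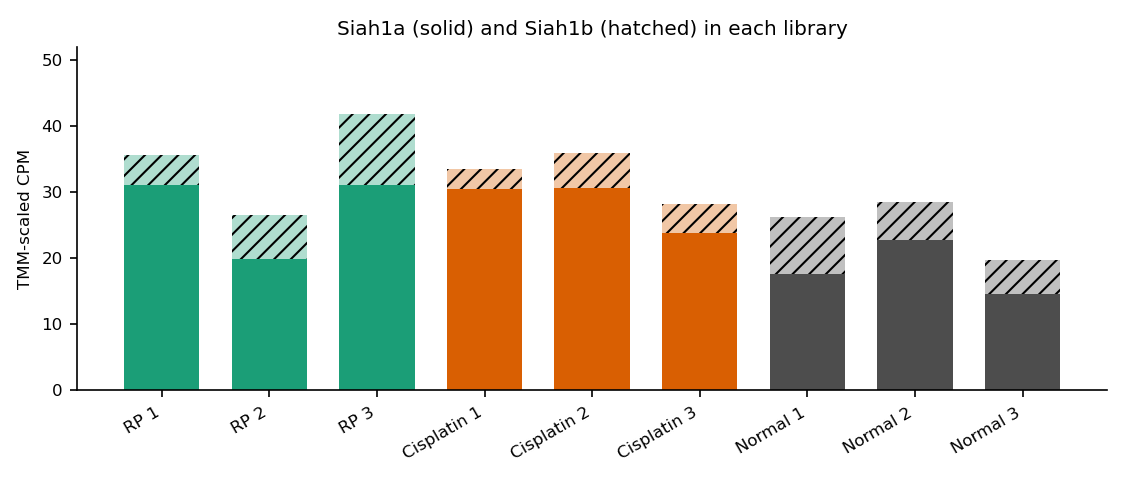
TMM-scaled CPM of Siah1a (solid) with Siah1b stacked above it (hatched) in each of the 9 libraries, RP, Cisplatin and Normal from left to right. Siah1a makes up 84.8 to 90.9% of both in Cisplatin and 67.0 to 79.7% in Normal.

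Traf6 encodes the RING ligase that builds signalling chains of ubiquitin downstream of Toll-like and interleukin-1 receptors. Its levels were 10.4, 5.56 and 12.5 CPM in RP, 10.2, 11.3 and 13.2 CPM in Cisplatin and 8.09, 7.98 and 7.34 CPM in Normal. The Cisplatin libraries lay above the Normal ones without overlap, as they did in one direction or the other for 62.2% of all genes. The range of the RP libraries overlapped both groups. The log2 fold change in Cisplatin against Normal was 0.57 ± 0.27 (interval -0.01 to 1.15) and did not pass (edgeR adjusted p = 0.0891). It passed when these 2 groups were fitted alone (0.04), and the alternatives gave adjusted p of 0.04 to 0.205. RP against Cisplatin gave -0.28 ± 0.26 (interval -0.85 to 0.28, edgeR adjusted p = 0.391) and RP against Normal 0.28 ± 0.27 (interval -0.30 to 0.86, edgeR adjusted p = 0.708). Traf6 lies at chr2:101678429-101701669 on the plus strand.

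Znrf2 encodes a RING ligase with a zinc finger that is anchored to endosomal and other membranes. Its counts were 29, 42 and 55 in RP, 38, 45 and 43 in Cisplatin and 22, 36 and 33 in Normal, or 3, 4.17 and 5.55 CPM in RP, 4.46, 4.28 and 5.12 CPM in Cisplatin and 2.66, 4.16 and 3.97 CPM in Normal. The Cisplatin libraries lay just above the Normal ones, and the RP libraries overlapped both groups. No comparison was called, with log2 fold changes of 0.36 ± 0.33 in Cisplatin against Normal (interval -0.35 to 1.06, edgeR adjusted p = 0.377), -0.12 ± 0.32 in RP against Cisplatin (interval -0.81 to 0.57) and 0.24 ± 0.33 in RP against Normal (interval -0.47 to 0.94). With counts this low the intervals are wide. Znrf2 lies at chr6:54816916-54893500 on the plus strand.

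Stub1 encodes CHIP, the U-box ligase that ubiquitinates clients held by HSP70 and HSP90. It was the most highly counted of the 7, with 92.9, 67.9 and 89.7 CPM in RP, 73.8, 68.6 and 71 CPM in Cisplatin and 62.3, 72.2 and 69.5 CPM in Normal. The groups overlapped in each comparison. The log2 fold change was 0.06 ± 0.14 in Cisplatin against Normal, with an interval of -0.24 to 0.37 (edgeR adjusted p = 0.718), 0.23 ± 0.14 in RP against Cisplatin (interval -0.07 to 0.53, edgeR adjusted p = 0.185) and 0.30 ± 0.14 in RP against Normal (interval -0.0038 to 0.60, edgeR adjusted p = 0.398). RP against Cisplatin passed without RP replicate 2 (log2 fold change 0.36, adjusted p = 0.0445) and with library size as the only scaling (0.37, adjusted p = 0.0406).

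The Stub1 counts cannot be assigned to Stub1 alone. Stub1 lies at chr17:25830505-25833404 on the minus strand, tail to tail with Jmjd8, a gene for a jumonji domain protein, at chr17:25828867-25831843 on the plus strand, and the last parts of both genes overlap over 1339 bases, of which 1084 are exonic in both. Stub1 had 899, 684 and 889 counts in RP, 628, 722 and 597 in Cisplatin and 516, 624 and 578 in Normal. Jmjd8 had 967, 782 and 970 counts in RP, 689, 794 and 634 in Cisplatin and 582, 686 and 653 in Normal. The ratio of Stub1 to Jmjd8 counts stayed between 0.875 and 0.942 in all 9 libraries, and both varied together over them with a Pearson r of 0.986, a description over libraries that share groups and depth. The strand setting of the authors' counting is not given in the sources used here, and without it reads from the shared 3′ end cannot be told apart. The fold changes of Jmjd8 were 0.02 ± 0.13 for Cisplatin against Normal, 0.25 ± 0.13 for RP against Cisplatin and 0.27 ± 0.13 for RP against Normal. They differed from those of Stub1 by less than their SEs.

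**Figure D4:**
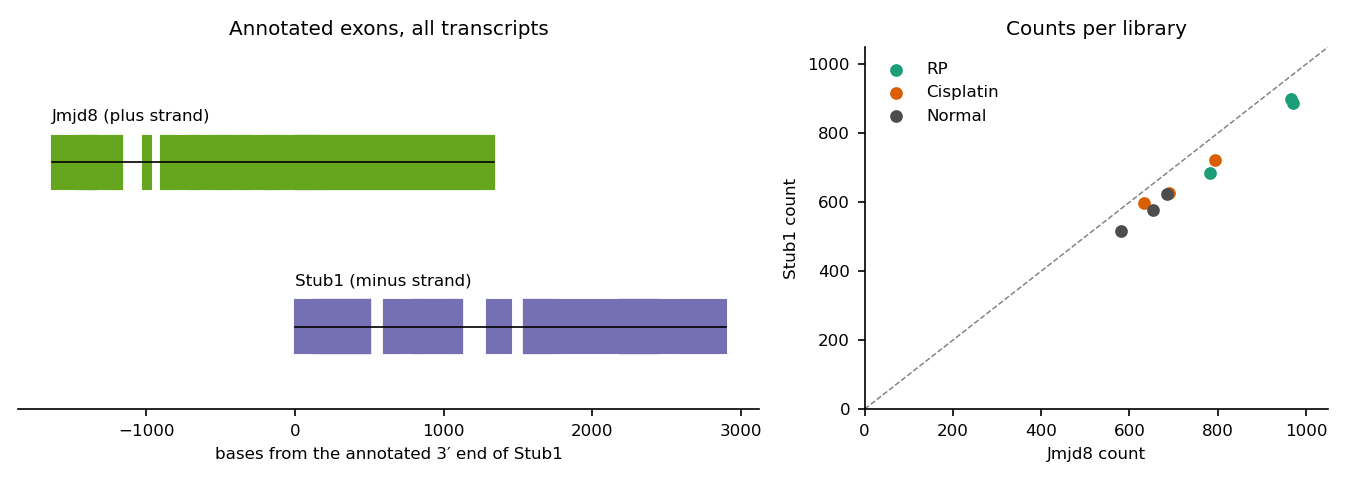
Left, annotated exons of Jmjd8 and Stub1 from all transcripts, as bases from the annotated 3′ end of Stub1, drawn to scale. Right, Stub1 count against Jmjd8 count in each library of RP, Cisplatin and Normal with the line of equal counts dashed, where the ratio is 0.875 to 0.942 throughout.

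Genes whose pattern over the 9 libraries was most like that of each ligase were listed by Pearson r of log2(CPM + 1) over tested genes averaging 5 CPM or more, as a description of libraries that share groups. For Cblb they were Ppp2r5e (r = 0.986), a regulatory subunit of protein phosphatase 2A, Spg11 (0.977) and Brwd1 (0.977). Ppp2r5e averaged 57.5 CPM in RP, 97.8 CPM in Cisplatin and 57.4 CPM in Normal. For Trim32 they were Nmb (0.987), which encodes the peptide neuromedin B, Lgr4 (0.985) and B4gat1 (0.984), a glycosyltransferase gene of the dystroglycan pathway. B4gat1 averaged 28.4 CPM in RP, 17.8 CPM in Cisplatin and 29.4 CPM in Normal. For Mul1 they were Igbp1 (0.993) and the ribosomal protein genes Rplp0 (0.992) and Rps20 (0.991). For Siah1a they were the glutathione peroxidase gene Gpx3 (0.947), the IGF-1 receptor gene Igf1r (0.946) and the kinase gene Akt2 (0.939). The closest to Traf6 were Mpp6 (0.960), U2surp (0.952) and Ascc3 (0.918), and those to Znrf2 were Il15ra (0.924), Nat10 (0.900) and Smyd4 (0.883). After Jmjd8, those to Stub1 were Rfk (0.945) and Aph1a (0.936). Among the 7 themselves r was -0.907 for Mul1 with Trim32, -0.861 for Cblb with Trim32 and 0.781 for Cblb with Mul1.

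The wider pathway was read from 10 lists of other ligases, relatives, E2 enzymes, partners and substrates, 180 different genes of which were tested. In Cisplatin against Normal 109 of them were called, 60.6% against 54.5% of all genes, and in RP against Cisplatin 92, or 51.1% against 48.8%. By list, the share called ran from 41.2% (relatives) and 42.9% (SIAH1 partners) to 72.2% (STUB1 chaperones) and 84.2% (TRIM32 substrates) in Cisplatin against Normal. In RP against Cisplatin it ran from 31.2% (MUL1 list) to 72.2% (STUB1 chaperones), with 42.1% of the TRIM32 substrates called. In RP against Normal edgeR called 0 of the 180, with 37 at an unadjusted p under 0.05, DESeq2 called 6 and limma-voom 1. Of 21 muscle wasting ligases of other families tested, 12 rose and 2 fell in Cisplatin, with a median log2 fold change of 0.76. The shares called were 66.7% there and 57.1% in RP against Cisplatin, against 54.5% and 48.8% of all genes. Besides Trim63 (4.25 ± 0.23) and Fbxo32 (4.72 ± 0.30), Fbxo31 rose by 2.81 ± 0.16 and Trim54 (MuRF3) by 1.87 ± 0.15. For RP against Cisplatin, 11 fell and 1 rose, with a median of -0.67, among them Trim63 (-4.07 ± 0.23), Fbxo31 (-2.47 ± 0.16), Fbxo32 (-4.33 ± 0.29) and Trim54 (-1.47 ± 0.15).

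Close relatives of the 7 split. Of 17 tested, 3 rose and 4 fell in Cisplatin against Normal, so 41.2% were called, against 54.5% of all genes. The U-box ligases Ube4a and Ube4b rose, Ube4a to 69.7 ± 8.75 CPM in Cisplatin against 12.4 ± 2.54 CPM in Normal (log2 fold change 2.49 ± 0.25, edgeR adjusted p = 2.92e-06) and Ube4b to 92.3 ± 7.82 CPM against 39.4 ± 2.69 CPM (1.23 ± 0.13, edgeR adjusted p = 4.26e-06). Znrf1, the relative of Znrf2, fell by 0.59 ± 0.15 on the log2 scale, at 40 ± 5.14 CPM in Cisplatin against 60.2 ± 9.05 CPM in Normal, and Traf5 was lower at 0.299 ± 0.252 CPM in Cisplatin against 2.55 ± 1.88 CPM in Normal. Relative to Cisplatin, in RP 3 rose and 3 fell, or 35.3% called against 48.8% of all genes. Among them were Ube4a at -2.08 ± 0.24, Ube4b at -1.03 ± 0.13, Cbll1 at -0.82 ± 0.19 and Traf5 at 2.65 ± 0.81. The Traf5 call in RP against Cisplatin was lost without Cisplatin replicate 2 (edgeR adjusted p = 0.0581), Cisplatin replicate 3 (0.0535) or RP replicate 2 (0.0956). Among 13 E2 enzymes that work with such ligases, 5 rose and 2 fell in Cisplatin, Ube2k (0.75 ± 0.14), Ube2l3 (0.73 ± 0.15) and Ube2d3 (0.59 ± 0.12) rising and Ube2d1 (-0.81 ± 0.18) falling. For RP against Cisplatin, 3 rose and 4 fell, with Ube2d1 (1.25 ± 0.18) and Ube2e2 (1.66 ± 0.39) higher and Ube2k (-0.67 ± 0.14) and Ube2l3 (-0.60 ± 0.15) lower. The share of the 13 called was 53.8% in each of these comparisons, close to the 54.5% and 48.8% of all genes.

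Around Cblb, 6 of 19 insulin receptor signalling and adaptor genes rose in Cisplatin and 5 fell (median 0.07). The shares called were 57.9% there and 52.6% in RP against Cisplatin, close to the 54.5% and 48.8% of all genes. Sh3kbp1, which encodes the CBL-binding adaptor CIN85, fell to 6.46 ± 2.34 CPM in Cisplatin, against 47 ± 2.56 CPM in Normal (log2 fold change -2.87 ± 0.22, edgeR adjusted p = 3.72e-07), and the growth factor gene Igf1 fell by 2.61 ± 0.25 on the log2 scale. The kinase gene Akt1 (1.63 ± 0.14) and the transcription factor gene Foxo1 (1.71 ± 0.23) rose. Relative to Cisplatin, in RP 5 rose and 5 fell, Sh3kbp1 being at 2.01 ± 0.22, Igf1 at 2.08 ± 0.25, Akt1 at -1.14 ± 0.14 and the insulin receptor gene Insr at -1.08 ± 0.15. Around Traf6, 12 of 25 receptor to NF-kB genes rose in Cisplatin and 3 fell (median 0.52). They included the scaffold gene Sqstm1 (1.84 ± 0.15), the inhibitor gene Nfkbia (1.31 ± 0.17), Rela (1.17 ± 0.17) and Tnfrsf12a (2.16 ± 0.32), which encodes the TWEAK receptor Fn14. For RP against Cisplatin, 13 fell and 2 rose (median -0.73), with Sqstm1 at -1.43 ± 0.15, Tnfrsf12a at -2.57 ± 0.32, Rela at -1.23 ± 0.16 and the kinase gene Irak1 at -0.77 ± 0.13. Of these 25 genes, 60% were called in each of these comparisons, against 54.5% and 48.8% of all genes.

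Of 18 chaperone partners of STUB1, 10 rose and 3 fell in Cisplatin against Normal (median 0.49). There and in RP against Cisplatin 72.2% were called, against 54.5% and 48.8% of all genes. Hspb1, a small heat shock protein gene, rose by 3.50 ± 0.16, Dnajb6 by 1.21 ± 0.13 and Hsp90ab1 by 1.48 ± 0.16, while Synpo2, which binds BAG3, was at -1.75 ± 0.26. Relative to Cisplatin, in RP 11 fell and 2 rose (median -0.63), with Hspb1 at -3.62 ± 0.16, Dnajb6 at -1.30 ± 0.13, Hsp90ab1 at -1.27 ± 0.16 and Hsp90aa1 at -0.92 ± 0.13. Around Trim32, 8 of 19 sarcomere and other substrate genes rose in Cisplatin and 8 fell (median 0.22). The shares called were 84.2% there and 42.1% in RP against Cisplatin, against 54.5% and 48.8% of all genes. The thin filament genes Tpm1 (-1.47 ± 0.16) and Acta1 (-1.25 ± 0.17) fell, and Des, the desmin gene (0.76 ± 0.16), and Jup, the plakoglobin gene (1.02 ± 0.14), rose. Thin filament genes of the list did not move as a class, since some were not called or rose in Cisplatin and several were not called in RP against Cisplatin. For RP against Cisplatin, 3 rose, namely Tpm1 (1.35 ± 0.16), Acta1 (1.09 ± 0.17) and the fast troponin C gene Tnnc2 (0.95 ± 0.18), and 5 fell, Jup (-0.98 ± 0.13) among them.

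Around Mul1, 7 of 16 mitochondrial dynamics and mitophagy genes rose in Cisplatin and 3 fell (median 0.32). The shares called were 62.5% there and 31.2% in RP against Cisplatin, against 54.5% and 48.8% of all genes. The mitophagy receptor genes Bnip3 (2.53 ± 0.17) and Bnip3l (0.82 ± 0.12) and the prohibitin gene Phb2 (0.76 ± 0.12) rose, and the fission gene Dnm1l (-0.72 ± 0.16) fell. Relative to Cisplatin, in RP 4 fell and 1 rose, the 4 being Bnip3 (-1.97 ± 0.16), Bnip3l (-0.63 ± 0.12), Mavs (-0.86 ± 0.18) and Phb2 (-0.42 ± 0.12), and the Phb2 call was lost with library size as the only scaling (-0.28, edgeR adjusted p = 0.0755). Around Znrf2, 7 of 19 sodium pump and mTORC1 genes rose in Cisplatin and 4 fell (median 0.17). Called were 57.9% there and 47.4% in RP against Cisplatin, close to the shares of all genes. The pump subunit gene Atp1b2 (-2.49 ± 0.19) fell, and the translation repressor gene Eif4ebp1 (3.59 ± 0.24) and the mTORC1 activator gene Rheb (1.46 ± 0.12) rose. For RP against Cisplatin, 6 fell and 3 rose, with Atp1b2 at 2.60 ± 0.19, Rheb at -1.34 ± 0.12 and Eif4ebp1 at -2.58 ± 0.23. Around Siah1a, 3 of 14 genes rose and 3 fell in Cisplatin (median 0.02). Called were 42.9% there, below the 54.5% of all genes, and 50% in RP against Cisplatin, close to the 48.8%. The prolyl hydroxylase genes Egln3 (2.54 ± 0.22) and Egln1 (-0.79 ± 0.14) moved in opposite directions, Peg3 rose (1.45 ± 0.22) and Sncaip fell (-1.56 ± 0.38). Relative to Cisplatin, in RP 4 rose and 3 fell, with Egln3 at -2.07 ± 0.22, Peg3 at -1.36 ± 0.22, Sncaip at 1.94 ± 0.37 and Egln1 at 0.65 ± 0.14.

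**Figure D5:**
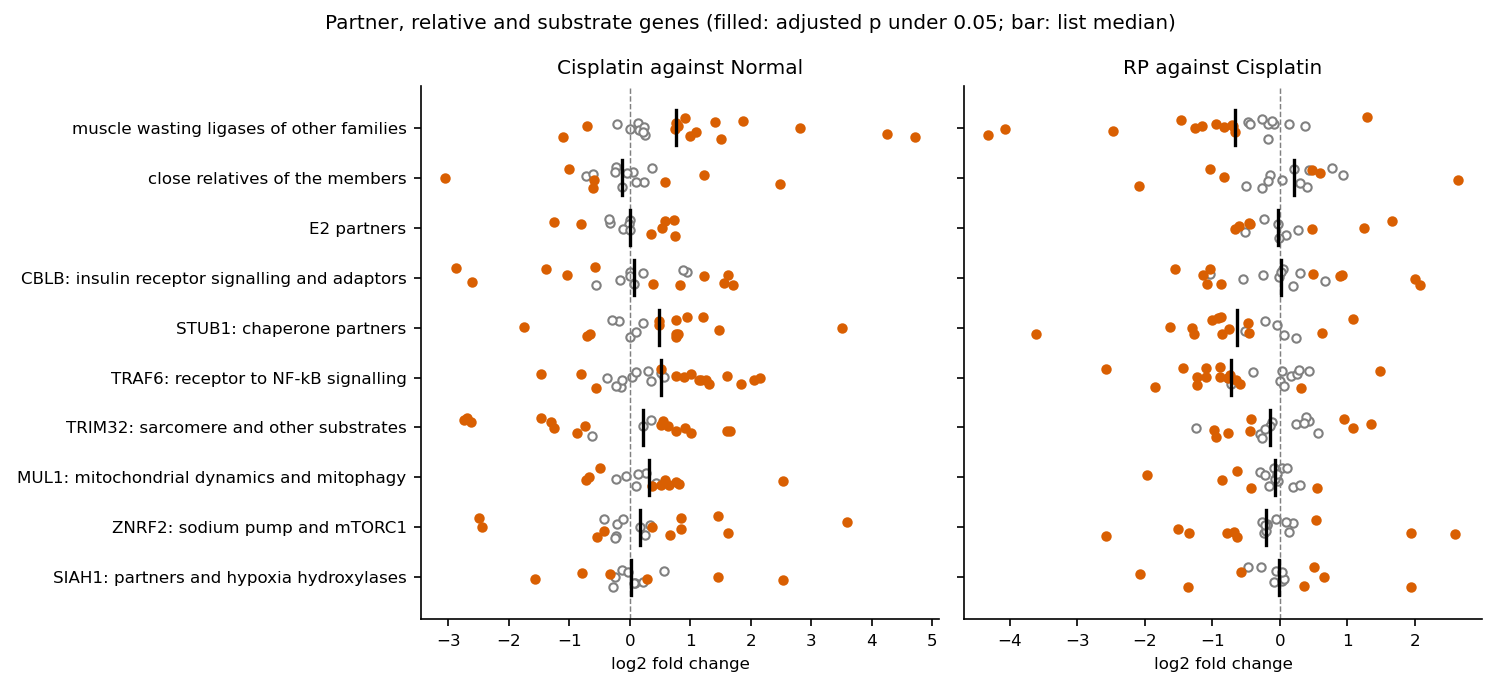
Log2 fold change (horizontal axis) of each gene of the 10 lists in Cisplatin against Normal (left) and RP against Cisplatin (right). Filled points passed an adjusted p under 0.05 and the bars are list medians, such as 0.76 and -0.67 for the muscle wasting ligases of other families.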

How the data were processed

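The 3′ ends of transcripts were sequenced from 9 gastrocnemius libraries, 3 each of RP, Cisplatin and Normal. Per the labels' protocols, 500 ng of Trizol-extracted total RNA entered a Lexogen QuantSeq kit. The authors deposited raw read counts per gene symbol, 23282 rows per library. Bowtie2, edgeR and mm10 are named, per the submitters' processing notes. The sources used here do not give their versions, the program that counted reads, whether it used strand, or which annotation it used.

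Here, 79 rows sharing 35 symbols were summed to 23238 symbols, and 12859 genes passed filterByExpr. The test was edgeR 4.0.16 (R 4.3.3) with TMM scaling and glmQLFTest on all 9 libraries, SE being the log2 fold change over the root of F. On simulated data with known log2 changes, it recovered 45 of 100 of size 1 and 92 of 100 of size 2 in Cisplatin against Normal. At size 0.5 it recovered 4 of 100 in RP against Cisplatin and 2 of 100 in RP against Normal. At size 1 these were 53 and 41. Changes of size 0.5 were thus mostly missed in the simulated data. There 12303 of 12498 genes were unchanged, whereas in the real data 54.5% were called in Cisplatin against Normal and 48.8% in RP against Cisplatin. Adjustment over all genes is stricter where few genes change. The rates for those 2 comparisons therefore do not carry over to the real data, where Mul1 was called at 0.45. Library size alone moved the median of all genes to -0.146 in Cisplatin against Normal and 0.213 in RP against Cisplatin, against -0.0755 and 0.0676 with TMM, and changes are given on the TMM scale. Replicates of a group differed by more than counting error (chi-square per degree of freedom 11.3 to 28.9). The labels name no molecular identifiers, so reads may include PCR copies.

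Alternatives were RLE scaling, library size only, no filter, DESeq2 1.42.0, limma-voom (limma 3.58.1), a minimum of 5 CPM in 3 libraries, a fit of only the 2 groups compared, a block for the replicate number, leaving out Rn45s and leaving out each library. Summing Siah1a and Siah1b was added after seeing the data, and it left the counts of the other ligases unchanged. Gene positions came from GENCODE M21 (GRCm38, which is mm10) and promoters from RefSeq on GRCm38.p6, where 7 of 7 symbols matched. Named genes were the 7 ligases, up to 4 called genes of each list per comparison by lowest p, Fbxo32 and Trim63, genes overlapping a ligase, Siah1b, and 3 genes of highest r per ligase, leaving out unnamed gene models. A gene that this rule takes from a list is not reported here. The ligases and lists were chosen with earlier results of these data known. Plots used Python 3.11.15 and matplotlib 3.10.9.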

Additional observations from a re-analysis of the deposited data

How the results depend on the processing

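Of 333 values of the 7 ligases under the alternatives, 310 kept their direction and their side of the threshold, 5 lost a call, 3 gained one and 15 changed sign. The calls of Cblb and Trim32 in both Cisplatin comparisons and of Mul1 in Cisplatin against Normal held throughout. Siah1a in Cisplatin against Normal held in 11 of 16, and the cause was not tested. The number of ligases called in Cisplatin against Normal was 3 to 4 when a library was left out and 5 with these groups alone, and in RP against Normal it was 0 throughout. Ligases called higher in RP against Cisplatin numbered 2 with library size only and 1 to 2 when a library was left out, Stub1 being the one added. Znrf2 was below the minimum of 5 CPM in 3 libraries, and Cblb met it only through the Cisplatin libraries. With library size only, Stub1 in Cisplatin against Normal was -0.008, Znrf2 and Siah1a in RP against Cisplatin were 0.02 and 0.07, and Cblb in RP against Normal was 0.05. With the minimum of 5 CPM, Stub1 was -0.0052 and Siah1a 0.0068 in the same comparisons. Siah1a in RP against Cisplatin was 0.09 with Siah1b summed, and -0.17 to 0.13 when a library was left out (0.0044 without Cisplatin replicate 2), and Znrf2 was -0.37 to 0.08 (0.08 without RP replicate 1). In RP against Normal Cblb was 0.05 with limma-voom and -0.29 to 0.20 when a library was left out (0.20, 0.09 and 0.04 without Normal replicate 2, Normal replicate 1 and RP replicate 1). In the same comparison Znrf2 was -0.00074 to 0.43, Siah1b -0.22 to 0.42 and Trim63 -0.05 to 0.35 when a library was left out, each lowest without RP replicate 3.

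Replicate numbers were shared between groups, but deviations of same-numbered libraries correlated at -0.15 to 0.18, so the numbers were not taken to pair the samples. With the replicate block, 4 of the 7 were called for Cisplatin against Normal, 2 for RP against Cisplatin and 0 for RP against Normal, the counts without it. In RP against Normal, genes called over the whole table numbered 24 higher and 41 lower, with 103 and 126 with DESeq2, 123 and 170 with no filter, and 36 and 24 with library size only. Leaving out any one RP or Normal library moved their total by over 1.5 times, to 8 to 59 higher and 14 to 58 lower. In RP against Cisplatin they numbered 3167 higher and 3110 lower, and 3678 and 2435 with library size only. Low counts limit Cblb and Znrf2, whose counts per library were 12 to 79 and 22 to 55.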
